A study of Mus musculus with 28 samples.

Results

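The genes described are the proteases that cut the amyloid precursor protein and the relatives of that protein: the alpha-secretases Adam10 and Adam17, the beta-secretase Bace1 and its homologue Bace2, the gamma-secretase subunits Psen2, Ncstn, Aph1a and Psenen, and the amyloid precursor-like genes Aplp1 and Aplp2. These 10 genes were taken by symbol from a table of 24062 genes, and all 10 were among the 16369 genes that passed a filter on low counts. Alpha-secretases cut the precursor inside the amyloid-beta sequence and release a soluble ectodomain. Beta-secretase cuts at the start of that sequence, and the gamma-secretase complex then cuts the remaining stub within the membrane, which frees amyloid-beta. The precursor-like proteins share this route of processing but lack the amyloid-beta sequence.

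Messenger RNA of the hippocampus of female mice was measured by bulk RNA sequencing in 28 libraries, in 7 groups of 4. The 3xTg mice (3xTg-AD, a model of Alzheimer's disease) carry human APP and tau transgenes driven by a Thy1 cassette, so App is itself altered in this line. They received navitoclax (ABT263, labelled NAVI), which blocks survival proteins of the BCL-2 family, dasatinib with quercetin (labelled DQ), or 1 of 2 vehicles labelled VehN and VehD. Wild-type (WT) mice of a mixed BL6 and 129 background received NAVI, DQ or a vehicle labelled Veh. Both drug regimens are used to remove senescent cells, and the design asks how each changes the hippocampus of either genotype. The sources used here do not give age, dose or schedule.

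The libraries held 32080861 to 54019519 counts. App reads lay between 2410 and 3805 CPM (counts scaled to the size of the library) in all 16 3xTg libraries and between 1470 and 1800 CPM in all 12 WT libraries, and 0.593% of all tested genes separated the genotypes in this way. The sources used here do not say how reads of the transgenes were counted. All 8 hippocampal marker genes were detected in every library. The libraries also differed in ways the labels do not describe. The summed level of 8 choroid plexus markers ran from 70.8 to 5833 CPM, and that of 8 markers of the thalamus and habenula ran from 83.1 to 642 CPM, both without any marker at 0. The thalamic score (mean log2 CPM of its markers relative to all libraries) was above 0.5 in 8 libraries: 3xTg VehN replicates 1 and 2, 3xTg VehD replicates 1 and 4, 3xTg NAVI replicate 1, WT Veh replicate 2 and WT DQ replicates 1 and 4. The GC trend of a library, which is the slope of its log2 gene levels against the GC content of the genes, ran from -0.34 to 0.28 log2 units per 10 percentage points of GC. In 3xTg it had a median of -0.13 in VehN, -0.07 in VehD, 0.16 in NAVI and -0.07 in DQ. In WT the medians were 0.09 in Veh, -0.05 in NAVI and 0.13 in DQ. Because the tissue was sequenced in bulk, fewer cells of a type and less RNA per cell cannot be told apart.

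Upstream sequences are shown for 3 genes on which the results turn: Adam17, which of the 10 had the smallest p between genotypes, and Adam10 and Aplp1, which moved in opposite directions across the libraries. Each run is the 250 bases before the RefSeq start of the gene (build GRCm38.p6), read 5′ to 3′ on the gene's strand, with the GC box GGGCGG or its reverse complement CCGCCC in capitals.
Adam17, chr12:21373633-21373882, minus strand: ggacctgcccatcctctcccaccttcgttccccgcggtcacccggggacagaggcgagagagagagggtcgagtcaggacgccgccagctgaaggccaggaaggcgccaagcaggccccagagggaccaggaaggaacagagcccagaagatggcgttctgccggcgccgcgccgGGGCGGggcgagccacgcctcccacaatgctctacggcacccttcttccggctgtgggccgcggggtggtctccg
Adam10, chr9:70678732-70678981, plus strand: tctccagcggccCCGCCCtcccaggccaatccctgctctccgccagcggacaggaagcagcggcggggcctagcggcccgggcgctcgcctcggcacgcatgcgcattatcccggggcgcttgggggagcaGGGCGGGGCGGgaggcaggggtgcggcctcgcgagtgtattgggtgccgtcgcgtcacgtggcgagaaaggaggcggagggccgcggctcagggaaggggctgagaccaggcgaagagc
Aplp1, chr7:30445583-30445832, minus strand: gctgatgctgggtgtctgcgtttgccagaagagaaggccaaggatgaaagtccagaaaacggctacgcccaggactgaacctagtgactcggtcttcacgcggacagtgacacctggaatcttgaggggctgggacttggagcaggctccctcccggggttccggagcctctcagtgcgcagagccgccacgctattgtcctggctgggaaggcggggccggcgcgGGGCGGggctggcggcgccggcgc

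The Adam17 window held 1 GC box, the Aplp1 window 1 and the Adam10 window 3, of which 2 share a base. GC content was 70.4% for Adam17, 74% for Adam10 and 66% for Aplp1, and the windows held 23, 29 and 20 CpG dinucleotides. None of the 3 held TATAAA or its reverse complement TTTATA. Over 32851 such windows the median GC content was 52.4% and the median number of CpG dinucleotides 6. The GC box occurred in 32.7% of them and TATAAA on either strand in 12.4%. These are matches of letters and say nothing of binding. Of the 10 genes, 8 had a window in the RefSeq table.

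The order of the 10 genes by level, per kilobase of merged annotated exons, ran over more than 2 orders of magnitude. Aplp1 had the highest median over the 28 libraries, 295 CPM per kilobase, followed by Aplp2 at 114, Adam10 at 29.7, Bace1 at 23.0, Psenen at 22.7 and Ncstn at 17.0. Aph1a followed at 6.32 CPM per kilobase, Adam17 at 3.47, Psen2 at 2.40 and Bace2 at 0.830. Adam10 was thus the more abundant alpha-secretase, Bace1 the more abundant of the Bace genes, and Psen2 lay below its partner subunits. The ranges over libraries overlapped for 3 neighbouring pairs in this order: Bace1 with Psenen, Psenen with Ncstn, and Adam17 with Psen2. Divided by the longest transcript in place of merged exons, Psenen moved to the third place at 40.8 CPM per kilobase.

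**Figure D1:**
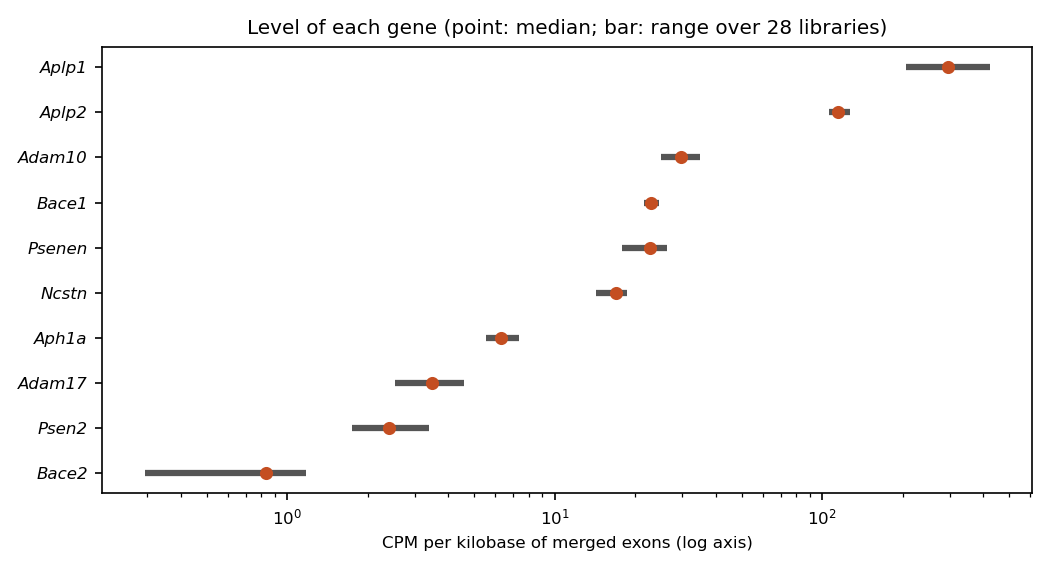
Level of each gene in CPM per kilobase of merged exons, on a log axis. Points are medians and bars the range over 28 libraries. Aplp1 (295) and Aplp2 (114) lie above the secretase genes, and Bace2 (0.830) lies lowest.

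The genes also differed in how far they varied between libraries. Bace1 had a coefficient of variation of 3.51% over the 28 libraries, lower than in all but 0.367% of the tested genes, and Aplp2 one of 4.59%. Aph1a (6.17%), Ncstn (7.29%), Adam10 (8.94%) and Psenen (9.12%) followed. Aplp1 (15.9%), Adam17 (16.1%) and Psen2 (17.4%) varied more, and Bace2 most, at 29.4%. Bace2 counts ran from 97 to 457 per library, and those of Aplp1 from 26906 to 53587.

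**Figure D2:**
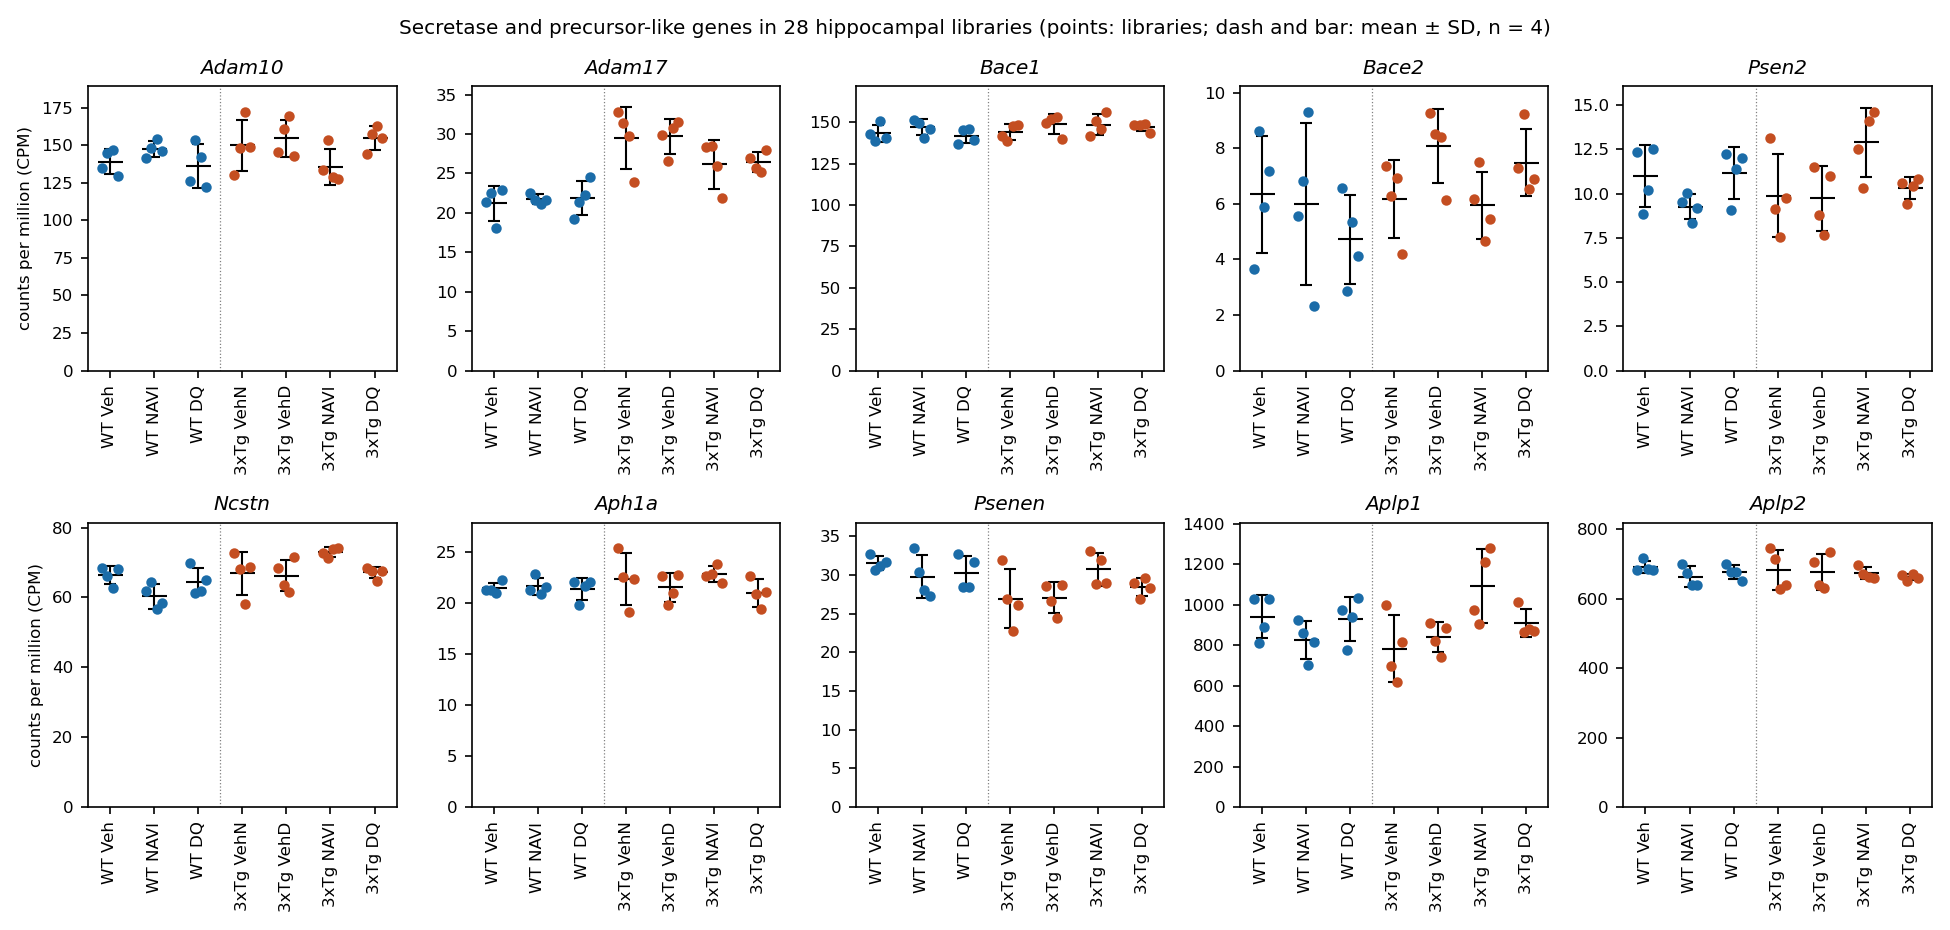
CPM of each gene in every library, by group; blue points are WT and orange points 3xTg libraries, and the dash with bars gives the mean ± SD of 4 libraries. Adam17 lies between 23.96 and 32.82 CPM in the 3xTg vehicle libraries and between 18.04 and 22.94 CPM in WT Veh, and Bace1 stays between 136.8 and 156.2 CPM throughout.

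The first comparison set 3xTg mice on vehicle (the mean of VehN and VehD) against WT mice on vehicle. Adam17 rose and Psenen fell in 3xTg, and the other 8 genes did not pass the test. Over all tested genes 13.1% were called in this comparison (edgeR quasi-likelihood test, Benjamini-Hochberg adjusted p under 0.05), with 5.68% higher and 7.4% lower. The 2 of 10 called here are to be read against that share. The median log2 difference of the 10 genes was 0.02, beside 0.01 over all tested genes.

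Adam17 encodes the alpha-secretase also known as the tumour necrosis factor converting enzyme, which sheds cytokines, receptors and growth factors as well as the precursor. It was at 32.82, 31.45, 29.72 and 23.96 CPM in the 4 VehN libraries and at 29.83, 26.56, 30.83 and 31.56 CPM in the 4 VehD libraries. In WT Veh it was at 21.34, 22.55, 18.04 and 22.94 CPM. All 8 3xTg vehicle libraries lay above all 4 WT ones, though VehN replicate 4 exceeded the highest WT value by little. Ranges that do not overlap were found for 5.71% of all tested genes in this comparison.

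The fitted difference of Adam17 was 0.48 on the log2 scale (SE 0.0853, 95% interval 0.31 to 0.66, edgeR adjusted p = 8.41e-04). The call held in all 26 alternative settings, with log2 differences of 0.34 to 0.52. After removal of the GC trends the difference was 0.39 (edgeR adjusted p = 0.0115), and it was 0.41 when the 8 libraries with a high thalamic score were left out (edgeR adjusted p = 0.0105). The 2 vehicle groups did not differ beyond their spread for this gene (log2 difference 0.01, 95% interval -0.19 to 0.21).

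The same direction appeared under each drug, but short of the threshold. With NAVI, Adam17 was at 28.42, 28.43, 25.96 and 21.85 CPM in 3xTg and at 22.56, 21.62, 21.14 and 21.68 CPM in WT, a genotype difference of 0.27 log2 units (SE 0.0966, edgeR adjusted p = 0.0896). The 3xTg NAVI replicate 4 lay within the WT values and the other 3 above them, and without it the difference was 0.35 and passed (edgeR adjusted p = 0.0401), as did 592 genes of the whole table. With DQ it was at 26.95, 25.73, 25.12 and 28 CPM in 3xTg and at 19.25, 21.43, 22.25 and 24.54 CPM in WT, a genotype difference of 0.28 log2 units (SE 0.0968, edgeR adjusted p = 0.135). The DQ groups did not overlap, which was so for 10.8% of all tested genes. Taken over all treatments, 14 of 16 3xTg libraries lay above all 12 WT libraries, the exceptions being NAVI replicate 4 and VehN replicate 4. The genotype difference averaged over vehicle, NAVI and DQ, a comparison added after seeing the data, was 0.34 (SE 0.0536, edgeR adjusted p = 6.65e-05), where 14.4% of all genes were called.

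Whether the Adam17 difference was smaller with a drug than with vehicle was tested directly. The drug effect in 3xTg minus that in WT was -0.21 for NAVI (95% interval -0.49 to 0.07, edgeR adjusted p = 0.289) and -0.21 for DQ (95% interval -0.49 to 0.07, edgeR adjusted p = 0.99995), so no difference passed the test.

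Markers of glia differed between genotypes as well. The summed level of 7 astrocyte markers, which include Gfap and Aqp4, was 3263 to 4693 CPM in the 3xTg libraries and 2697 to 2986 CPM in WT, and 4 of the 7 were called higher with vehicle. The 8 microglial markers summed to 484 to 713 CPM in 3xTg and 381 to 487 CPM in WT, with 1 of 8 called higher. The 8 oligodendrocyte markers summed to 4611 to 8432 CPM in 3xTg and 3891 to 6589 CPM in WT, with 3 of 8 called higher. Of the 8 neuronal markers, with sums of 10296 to 12456 CPM in 3xTg and 10829 to 13656 CPM in WT, 0 were called. These counts stand beside the 5.68% of all genes called higher with vehicle. No marker of the 4 lists was at 0.

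Over the 28 libraries Adam17 correlated with the neuronal score (Pearson r = -0.744, permutation p = 1e-05, the smallest possible; Spearman rho = -0.736; adjusted p = 1e-04 for both over 70 relations). Without the 2 libraries farthest from the median this r was -0.714, and it was -0.711 within 3xTg and -0.486 within WT. The permutations mixed the genotypes, so p-values over the 28 libraries also take in a difference between genotypes. With the oligodendrocyte score r was 0.530 (permutation p = 0.00415; Spearman rho = 0.499; adjusted p = 0.0171 and 0.0315), or 0.428 without the 2 farthest libraries, and 0.309 and -0.025 within the genotypes. The astrocyte score separated the genotypes and the microglial score overlapped between them only in part, so values within a genotype are given for these. Within a genotype the correlation of Adam17 with the astrocyte score was 0.34 over the 16 3xTg libraries and 0.25 over the 12 WT libraries. With the microglial score it was -0.0025 and 0.07. The part of these cells in the Adam17 difference was not tested.

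Adam17 lies on chromosome 12 from 21323509 to 21373632 on the minus strand (GENCODE M21, mm10). Its 3′ end shares 311 exon bases with Iah1 on the opposite strand, and the sources used here do not give the strand setting of the counting. Iah1 had a log2 difference of 0.14 (edgeR adjusted p = 0.270). Of 6 tested genes within 1 Mb, Itgb1bp1 was higher (log2 0.24, edgeR adjusted p = 0.00255) and 1700030C10Rik lower (log2 -6.50, edgeR adjusted p = 0.0352). These are 33.3% of the 6, beside 13.1% of all genes called with vehicle. Between genotypes with NAVI, Itgb1bp1 differed by -0.01 (edgeR adjusted p = 0.889) and Ywhaq was lower (log2 -0.45, edgeR adjusted p = 0.0166). 1700030C10Rik kept its direction but missed the threshold, with log2 -7.53 under NAVI (edgeR adjusted p = 0.05985) and -7.76 under DQ (edgeR adjusted p = 0.0775). With DQ, Itgb1bp1 differed by 0.12 (edgeR adjusted p = 0.279).

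Adam10, the main constitutive alpha-secretase of neurons, showed no called difference. Its mean was 139 ± 8.36 CPM (SD, n = 4) in WT Veh, 150 ± 17.3 in VehN and 155 ± 12.4 in VehD (n = 4 each), a genotype difference of 0.13 log2 units (SE 0.0700, edgeR adjusted p = 0.195). The 3xTg vehicle libraries ran from 130.0 to 172.2 CPM and the WT Veh libraries from 129.2 to 146.9 CPM, so the groups overlapped. The difference was -0.01 after removal of the GC trends. Without the 8 libraries with a high thalamic score it was 0.23 and passed the test (edgeR adjusted p = 0.0216), in a fit that called 5033 genes in place of 2142. Of the vehicle libraries that fit kept VehN replicates 3 and 4, VehD replicates 2 and 3 and WT Veh replicates 1, 3 and 4. Their GC trends were -0.34 and -0.11 in VehN, -0.15 and -0.27 in VehD, and 0.16, 0.02 and 0.25 in WT Veh. The part of the GC trend in the calls of that fit was not tested.

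Bace1, the beta-secretase of neurons, was the steadiest of the 10 genes. It was at 142.8, 138.8, 150.8 and 140.2 CPM in WT Veh, at 141.4, 138.9, 147.7 and 148.2 CPM in VehN and at 149.6, 152.1, 153.1 and 140.0 CPM in VehD. The 3 groups overlapped. The log2 difference was 0.03 (95% interval -0.04 to 0.11, edgeR adjusted p = 0.568), which bounds a rise with vehicle at 1.08-fold. The intervals of the genotype difference were -0.07 to 0.10 with NAVI and -0.03 to 0.14 with DQ. Bace1 shares 15.4% of its exon bases with Rnf214 on the opposite strand.

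Bace1 was lower in libraries with more choroid plexus or thalamic marker signal. Over the 28 libraries its log2 CPM correlated with the choroid plexus score (Pearson r = -0.629, permutation p = 5.4e-04; Spearman rho = -0.705; adjusted p = 0.00344 and 7.78e-04 over 70 relations), with r of -0.663 without the 2 libraries farthest from the median. Within the 3xTg libraries this r was -0.806 and within the WT libraries -0.534. With the thalamic score it was -0.607 (permutation p = 6.7e-04; Spearman rho = -0.550; adjusted p = 0.00382 and 0.0148), or -0.559 without the 2 farthest libraries, and -0.718 and -0.615 within the genotypes. With the neuronal score r was 0.432 over the 28 libraries and did not pass (permutation p = 0.0225, adjusted p = 0.0685). It was 0.768 within the 3xTg libraries and 0.825 within the WT libraries. The part of these cells in the level of Bace1 was not tested.

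Bace2, a homologue of Bace1 with its own substrates, could not be measured as closely. Its log2 difference with vehicle was 0.16 (95% interval -0.38 to 0.69). With DQ it was at 7.27, 9.24, 6.51 and 6.90 CPM in 3xTg and at 6.59, 2.85, 5.34 and 4.12 CPM in WT. WT DQ replicate 1 lay just above the lowest 3xTg value and the other 3 below all 4. The log2 difference of 0.66 (SE 0.303, edgeR adjusted p = 0.264) missed the threshold.

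The gamma-secretase complex is built from a catalytic presenilin such as Psen2, nicastrin (Ncstn), Aph1 and presenilin enhancer (Psenen). Psenen, which triggers the maturation of the catalytic subunit, was at 32.72, 30.60, 31.16 and 31.68 CPM in WT Veh. It was at 31.97, 26.91, 22.70 and 26.13 CPM in VehN and at 28.56, 26.67, 24.39 and 28.75 CPM in VehD. All 8 3xTg libraries but VehN replicate 1 lay below the 4 WT libraries. Psenen fell by 0.22 on the log2 scale (SE 0.0719, 95% interval -0.37 to -0.08, edgeR adjusted p = 0.0408).

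The Psenen call was close to the threshold. It held in 12 of 26 alternative settings, 4 of them among the 12 that leave out 1 library. It was lost without VehN replicate 2, 3 or 4, VehD replicate 2 or 3, or WT Veh replicate 1, 3 or 4, with edgeR adjusted p-values of up to 0.137. After removal of the GC trends the difference was -0.13 (edgeR adjusted p = 0.123). With NAVI the genotype difference was 0.05 (95% interval -0.13 to 0.22) and with DQ -0.09 (95% interval -0.26 to 0.08). Averaged over vehicle, NAVI and DQ it was -0.09 and did not pass (SE 0.0462, edgeR adjusted p = 0.219). Psenen shares 119 exon bases with U2af1l4 on the opposite strand.

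Ncstn, the subunit that admits substrates to the complex, did not differ with vehicle (log2 difference 0.01, 95% interval -0.10 to 0.11). With NAVI it was higher in 3xTg than in WT. It was at 72.64, 71.26, 74.01 and 74.06 CPM in 3xTg NAVI and at 61.87, 64.39, 56.59 and 58.30 CPM in WT NAVI, without overlap. The log2 difference was 0.28 (SE 0.0608, 95% interval 0.15 to 0.40, edgeR adjusted p = 0.00853), 1.21-fold. In this comparison 5.98% of all genes were called (3.29% higher, 2.69% lower) and 14.6% had ranges that do not overlap. Ncstn was the 1 gene of the 10 that passed.

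The Ncstn call held in all 19 alternative settings, with log2 differences of 0.24 to 0.30, and the difference was 0.24 after removal of the GC trends (edgeR adjusted p = 0.00202). The gene was 0.12 higher with NAVI than with VehN in 3xTg and 0.14 lower with NAVI than with Veh in WT, on the log2 scale. Neither passed the test (edgeR adjusted p = 0.176 and 0.614). The difference of these effects was 0.26 (SE 0.0860, edgeR adjusted p = 0.0547) and also missed it. With DQ the genotype difference of Ncstn was 0.06 (95% interval -0.07 to 0.18). Averaged over vehicle, NAVI and DQ it was 0.11 and passed (SE 0.0337, edgeR adjusted p = 0.0233).

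Markers of glia were higher in 3xTg in this comparison as well, beside 3.29% of all genes. The 8 oligodendrocyte markers summed to 6506 to 7963 CPM in 3xTg NAVI and to 3891 to 6589 CPM in WT NAVI, with 1 of 8 called. The 7 astrocyte markers summed to 3669 to 4693 CPM and 2710 to 2881 CPM, with 2 of 7 called. The 8 microglial markers summed to 515 to 713 CPM and 381 to 458 CPM, with 4 of 8 called. The 8 neuronal markers summed to 11171 to 12456 CPM in 3xTg NAVI and to 11915 to 13656 CPM in WT NAVI. Of these 8, 2 were called lower, beside 2.69% of all genes. Over the 28 libraries Ncstn correlated with the oligodendrocyte score (Pearson r = 0.673, permutation p = 9e-05; Spearman rho = 0.643; adjusted p = 7.87e-04 and 0.00235 over 70 relations). Without the 2 libraries farthest from the median r was 0.610. Within the 16 3xTg libraries r was 0.758 and within the 12 WT libraries 0.209. With the astrocyte score r was 0.704 within 3xTg and 0.603 within WT, and with the microglial score 0.520 and 0.129. With the neuronal score r was -0.498 over the 28 libraries (permutation p = 0.00688; Spearman rho = -0.471; adjusted p = 0.0253 and 0.0442). It was -0.457 without the 2 farthest libraries, -0.141 within 3xTg and -0.503 within WT. The part of these cells in the Ncstn difference was not tested.

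Psen2, a catalytic subunit, was not called in any of the 10 comparisons. With NAVI it was at 12.55, 10.32, 14.13 and 14.62 CPM in 3xTg and at 9.54, 10.02, 8.33 and 9.16 CPM in WT. These groups did not overlap, but the log2 difference of 0.48 (SE 0.153, edgeR adjusted p = 0.0599) missed the threshold. It passed in 6 of 19 alternative settings, among them the fit without 3xTg NAVI replicate 2 (log2 0.57, edgeR adjusted p = 0.0281) and removal of the GC trends (log2 0.33, edgeR adjusted p = 0.0440). With vehicle the difference was -0.16 (edgeR adjusted p = 0.403). It was -0.49 when the 8 libraries with a high thalamic score were left out (edgeR adjusted p = 0.0164). The GC trends of the vehicle libraries kept in that fit are given with Adam10, and their part was not tested.

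Aph1a, a scaffold subunit, ranged from 19.1 to 25.4 CPM. Its genotype difference was 0.03 with vehicle (95% interval -0.09 to 0.16), 0.08 with NAVI (-0.07 to 0.22) and -0.03 with DQ (-0.17 to 0.12), all on the log2 scale.

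Aph1b and Aph1c, the other scaffold genes, had log2 differences of 0.22 (edgeR adjusted p = 0.0562) and 0.19 (edgeR adjusted p = 0.169) with vehicle and did not pass.

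**Figure D3:**
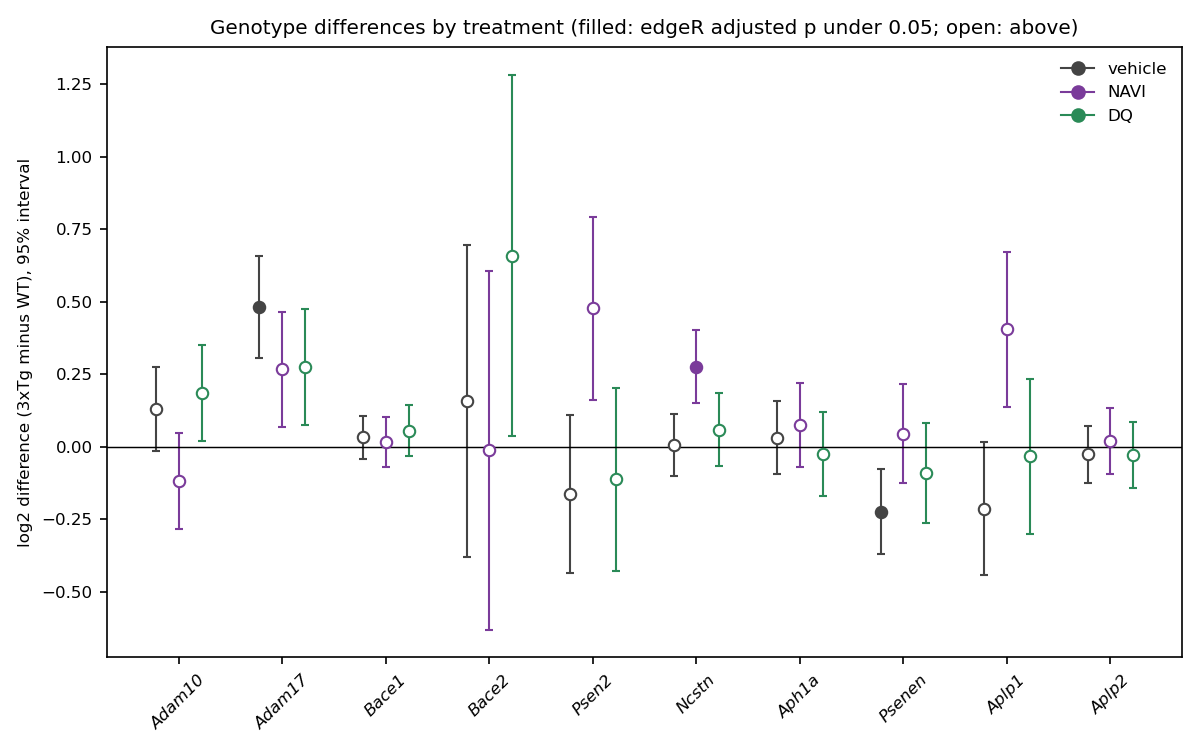
Log2 difference of 3xTg minus WT for each gene with vehicle, NAVI and DQ, with 95% intervals; filled points passed the edgeR test and open points did not. Adam17 (0.48) and Psenen (-0.22) are filled with vehicle, Ncstn (0.28) with NAVI, and none with DQ.

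Aplp1, a precursor-like protein of neurons that acts at synapses, was at 1030, 812.2, 890.7 and 1026 CPM in WT Veh and at 998.4, 696.0, 619.2 and 813.9 CPM in VehN. In VehD it was at 910.6, 818.9, 743.6 and 886.5 CPM. The groups overlapped. The log2 difference with vehicle was -0.21 (SE 0.111, edgeR adjusted p = 0.183). With NAVI the direction was the opposite, 0.41 (SE 0.130, edgeR adjusted p = 0.0593), and with DQ the difference was -0.03 (95% interval -0.30 to 0.23). Without the 8 libraries with a high thalamic score Aplp1 fell with vehicle (log2 -0.41, edgeR adjusted p = 0.0246), as it did without VehN replicate 1 alone (-0.29, edgeR adjusted p = 0.0479). These fits called 5033 and 3482 genes in all. The GC trends of the vehicle libraries kept in the first of them are given with Adam10, and their part was not tested. The NAVI difference passed without 3xTg NAVI replicate 2 (0.48, edgeR adjusted p = 0.0288), where 1920 genes were called.

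Aplp2, the widely expressed relative, ranged from 626 to 744 CPM. Its genotype difference was -0.03 with vehicle (95% interval -0.12 to 0.07), 0.02 with NAVI (-0.09 to 0.13) and -0.03 with DQ (-0.14 to 0.09), on the log2 scale. Over the 28 libraries Aplp2 correlated with the thalamic score (Pearson r = 0.743, permutation p = 1e-05, the smallest that the permutations can give; Spearman rho = 0.722; adjusted p = 1e-04 for both over 70 relations). Without the 2 libraries farthest from the median r was 0.647. It was 0.875 within the 3xTg libraries and 0.332 within the WT libraries. Without the 8 libraries with a high thalamic score the vehicle difference was -0.12 and passed the test (edgeR adjusted p = 0.0396), in the fit whose GC trends are given with Adam10.

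The drugs were then compared with vehicle within each genotype. In 3xTg none of the 10 genes was called with NAVI against VehN, where 0% of all tested genes were called. At an unadjusted p under 0.05 there were 3 of the 10 and 29.1% of all genes. DESeq2 called 1 of the 10 and 2000 of all genes, and limma-voom with quality weights 1 of the 10 and 826 of all genes. The smallest p was that of Aplp1, at 972.0, 906.3, 1212 and 1278 CPM with NAVI against 998.4, 696.0, 619.2 and 813.9 CPM with VehN. VehN replicate 1 lay above NAVI replicates 1 and 2, so the groups overlapped. The log2 difference was 0.48 (SE 0.130, 95% interval 0.21 to 0.75, edgeR adjusted p = 0.0595). Psen2 followed with 0.38 (SE 0.153, edgeR adjusted p = 0.110).

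The calls of this comparison changed with single libraries. Without VehN replicate 1, the library with the highest thalamic score, edgeR called 4 of the 10 genes higher with NAVI: Aplp1 (log2 0.64, adjusted p = 0.0144), Psen2 (0.57, 0.0156), Psenen (0.30, 0.0158) and Ncstn (0.18, 0.0411). That fit called 3578 genes in all. Without NAVI replicate 2 it called Aplp1 (0.57, 0.0176) and Psen2 (0.48, 0.0398), among 2790 genes, and without NAVI replicate 1 it called Aplp1 (0.54, 0.0408), among 760 genes. Without all 8 libraries with a high thalamic score it called 3, Aplp1 at 0.67, Psen2 at 0.60 and Psenen at 0.31, among 2514 genes. After removal of the GC trends it called 0 of the 10, and the Aplp1 difference was 0.15 (edgeR adjusted p = 0.149).

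The NAVI effect on Aplp1 differed between genotypes. It was 0.48 in 3xTg and -0.19 in WT, and the difference of these effects was 0.67 on the log2 scale (SE 0.183, 95% interval 0.29 to 1.05, edgeR adjusted p = 0.0427). Aplp1 was the 1 gene of the 10 called there, where 8.13% of all genes were called (5.89% higher, 2.24% lower). In WT it was at 924.6, 860.2, 699.8 and 814.1 CPM with NAVI, against the WT Veh values above, and the groups overlapped. The call held in 7 of the 16 fits that leave out 1 library and in 8 of 11 other settings. After removal of the GC trends the difference was 0.16 (edgeR adjusted p = 0.169). It was lost without NAVI replicate 3 or 4 or VehN replicate 2 or 3 of the 3xTg, and without WT NAVI replicate 2, 3 or 4 or WT Veh replicate 1 or 4, with edgeR adjusted p-values of up to 0.125. More of the 10 were called without VehN replicate 1 (Psen2, Ncstn and Psenen besides Aplp1), without 3xTg NAVI replicate 2 or WT Veh replicate 2 (Psen2 and Ncstn) and without WT Veh replicate 3 (Ncstn). In all, 4214 genes were called without VehN replicate 1, 3615 without 3xTg NAVI replicate 2, 2799 without WT Veh replicate 2 and 1163 without WT Veh replicate 3, beside 1331 with all libraries. The vehicle of NAVI in 3xTg is VehN and that of WT is Veh, so a difference of vehicles and one of genotype cannot be told apart in it.

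In WT no gene of the 10 was called with NAVI, where 0% of all genes were called. Ncstn alone had an unadjusted p under 0.05 (log2 -0.14, SE 0.0608, edgeR adjusted p = 0.614), and Psen2 followed with -0.25 (edgeR adjusted p = 0.615). At an unadjusted p under 0.05 there were 7.74% of all genes. DESeq2 and limma-voom called 0 of the 10.

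With DQ no gene of the 10 was called in 3xTg against VehD (0% of all genes) or in WT against Veh (0.00611% of all genes). None of the 10 had an unadjusted p under 0.05 in either, beside 1.83% of all genes in 3xTg and 3.38% in WT, and DESeq2 and limma-voom called 0 of the 10 in both. In 3xTg the smallest p-values were those of Adam17 (log2 -0.17, 95% interval -0.36 to 0.03) and Aplp1 (0.11, -0.15 to 0.38). In WT they were those of Bace2 (-0.42, -1.04 to 0.21) and Psenen (-0.06, -0.23 to 0.12). The interval of Bace1 was -0.10 to 0.07 in both genotypes. Between genotypes under DQ, where 3.05% of all genes were called (1.68% higher, 1.37% lower), edgeR called 0 of the 10. At an unadjusted p under 0.05 there were 3 (Adam10, Adam17 and Bace2), beside 17.4% of all genes. DESeq2 called 0 of the 10, and limma-voom 2 of the 10 and 1545 of all genes. VehN and VehD differed in 0 of the 10 (0% of all genes called), with 0 at an unadjusted p under 0.05, beside 4.93% of all genes, and 0 by DESeq2 or limma-voom. The DQ effect differed between genotypes in 0 of the 10 as well (0% of all genes called), with 0 at an unadjusted p under 0.05, beside 2.85% of all genes, and 0 by DESeq2 or limma-voom. All drug comparisons in WT and the genotype comparison with vehicle share the WT Veh libraries. VehN stands for 3xTg in the genotype comparison with vehicle and is the reference for NAVI in 3xTg and for the NAVI effect by genotype. A low VehN value therefore lowers the genotype difference and raises the NAVI differences, and these are not independent. The same holds for VehD and DQ.

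The levels of 6 genes followed the GC trend of the libraries, to different degrees. Across the 28 libraries log2 CPM correlated with that trend for Aplp1 (Pearson r = 0.932, Spearman rho = 0.955), Psen2 (0.918 and 0.893), Adam10 (-0.911 and -0.917) and Psenen (0.753 and 0.788). The permutation p was 1e-05 for each, the smallest that 100000 permutations can give, with an adjusted p of 1e-04 over 70 relations of genes and library measures. Ncstn (r = 0.576, rho = 0.578, adjusted p = 0.00733 for r) and Aph1a (r = 0.544, rho = 0.537, adjusted p = 0.0121) followed less closely. Without the 2 libraries farthest from the median r was 0.908 for Aplp1, 0.889 for Psen2, -0.886 for Adam10 and 0.755 for Psenen. It was then 0.448 for Ncstn and 0.477 for Aph1a. Within 3xTg r was 0.968 for Aplp1 and -0.921 for Adam10, and within WT 0.956 and -0.878. For Bace1, Bace2, Adam17 and Aplp2 the relation did not pass the test.

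The longest transcript of Aplp1 had 59.4% GC, that of Psen2 55.1%, that of Psenen 53.8%, that of Aph1a 53.7% and that of Ncstn 51.6%. GC content was 50% for Bace1, 48.4% for Aplp2, 45.9% for Bace2, 45.1% for Adam17 and 42.1% for Adam10. Each gene enters the trend itself as 1 of 15590 genes. Aplp1 and Psen2 rose and fell together across libraries (r = 0.919, rho = 0.911), and Adam10 ran against both, with r = -0.793 for Aplp1 and -0.845 for Psen2 (permutation p = 1e-05 for each, adjusted p = 1.12e-04 over 45 pairs). Without the 2 libraries farthest from the median these were 0.891, -0.752 and -0.834. In all, 20 of the 45 pairs passed. The log2 differences of all genes also followed GC content. The Spearman rho across 15590 genes, which are not independent replicates, was -0.505 for 3xTg against WT with vehicle, 0.485 with NAVI and -0.395 with DQ. It was 0.628 for NAVI against VehN in 3xTg, -0.527 for NAVI in WT and 0.687 for the NAVI effect by genotype. For DQ it was 0.286 in 3xTg, 0.03 in WT and 0.185 for the effect by genotype, and it was 0.141 between the vehicles.

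**Figure D4:**
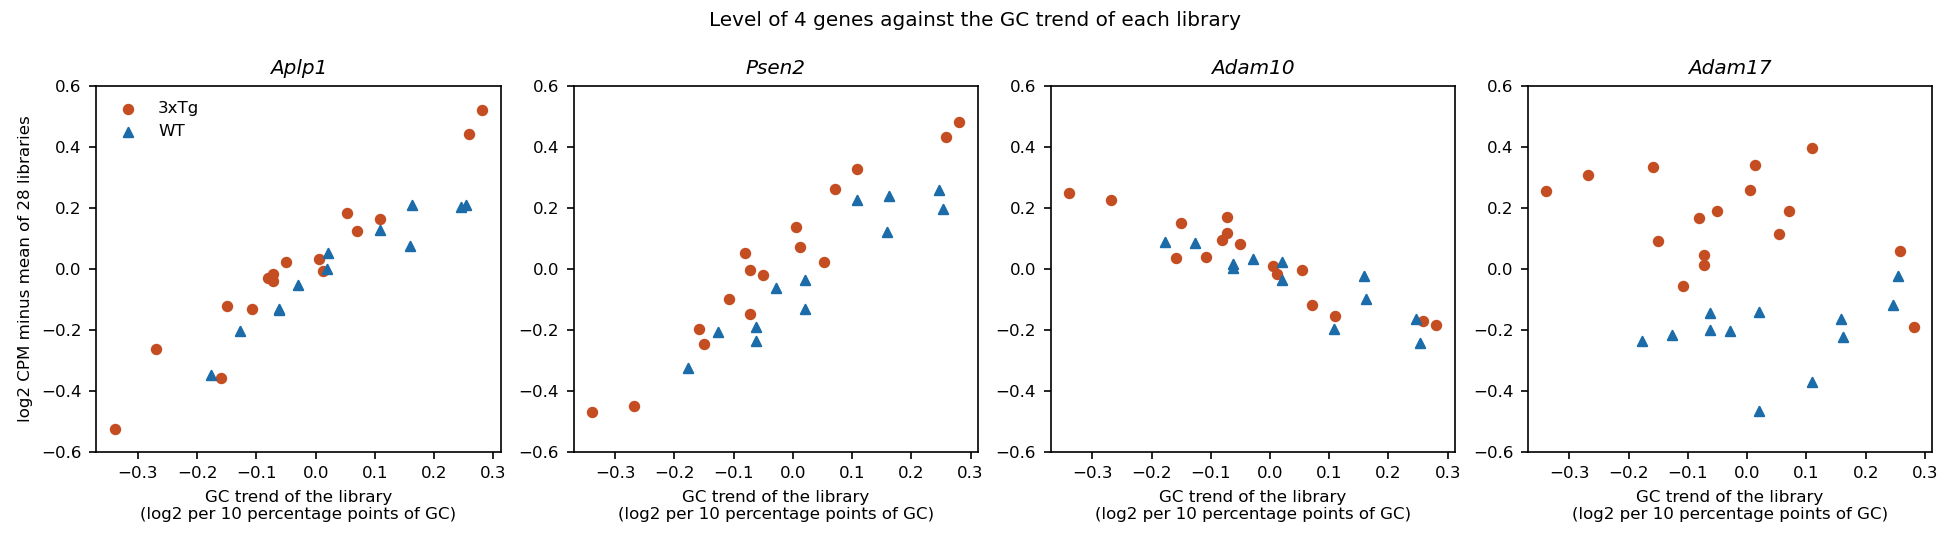
Log2 CPM of Aplp1, Psen2, Adam10 and Adam17, each minus its mean, against the GC trend of the library; each point is 1 of 28 libraries, circles for 3xTg and triangles for WT. Aplp1 (r = 0.932) and Psen2 (r = 0.918) rise with the trend, Adam10 (r = -0.911) falls, and for Adam17 14 of 16 3xTg points lie above all 12 WT points.

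The patterns most like those of 4 of the genes were found by Pearson correlation of log2 CPM over the 28 libraries among all tested genes. They were Nfe2l2 (r = 0.898) and Ctsh (0.854) for Adam17, Arih1 (0.951) and Tug1 (0.951) for Adam10, Man2b1 (0.903) and Tst (0.879) for Ncstn, and Rbck1 (0.972) and Ctbp1 (0.970) for Aplp1. The genes closest to Adam10 were low in GC (43.1% for Arih1, 37.9% for Tug1), and those closest to Aplp1 high (60.2% for Rbck1, 56.2% for Ctbp1). Points share their libraries, and no test was made of genes picked for their likeness.

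Partners of the secretases were followed in 56 genes of 7 groups, all 56 tested. With vehicle 4 were higher and 7 lower in 3xTg, beside 13.1% of all genes in either direction. Their median log2 difference was -0.02. Among 12 partners of the alpha-secretases Timp3, an inhibitor of metalloproteases that acts on Adam17, rose (log2 0.44, edgeR adjusted p = 0.0286), and Tspan17, a tetraspanin that accompanies Adam10 to the membrane, fell (-0.40, edgeR adjusted p = 0.0164). Timp3 was at 224 to 328 CPM in VehN, 161 to 249 CPM in VehD and 139 to 202.5 CPM in WT Veh, so that VehD overlapped WT Veh and VehN did not. The choroid plexus score was 1.1 to 2.36 in the 4 VehN libraries, -2.70 to 2.18 in VehD and -2.41 to 1.77 in WT Veh, and its part in the Timp3 difference was not tested. Of 12 genes of Bace1 traffic Rtn1, a reticulon, fell (-0.16, edgeR adjusted p = 0.0347).

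Of 9 substrates of the beta-secretase, Sez6 (log2 -0.38, edgeR adjusted p = 0.0165) and its relative Sez6l2 (-0.30, edgeR adjusted p = 0.0474) fell. Among 4 partners of gamma-secretase Gsap rose (0.37, edgeR adjusted p = 0.00993) and Rer1, which retains unassembled subunits in the early secretory path, rose (0.21, edgeR adjusted p = 0.0392). Of 10 adaptors and partners of the precursor Apba2 fell (-0.29, edgeR adjusted p = 0.0410). Of 7 enzymes that degrade amyloid-beta, Ide, the insulin-degrading enzyme, rose (0.18, edgeR adjusted p = 0.0374) and Ece1, an endothelin-converting enzyme, fell (-0.31, edgeR adjusted p = 0.00658). Mmp24, 1 of 2 other proteases of the precursor, fell (-0.24, edgeR adjusted p = 0.0264). With NAVI the mean of Sez6 was 165 CPM in 3xTg and 145 CPM in WT, the opposite direction. The means of Sez6l2, Apba2, Mmp24, Ece1, Tspan17, Ide and Rer1 also lay the other way with NAVI. Those of Timp3, Rtn1 and Gsap lay the same way. None of these partners was called between genotypes with NAVI. The part of the GC trends in the partner calls was not tested.

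With NAVI 2 of the 56 were higher in 3xTg than in WT and 0 lower, beside 5.98% of all genes. Both were cofactors of Adam17, which was not itself called here (edgeR adjusted p = 0.0896). Rhbdf1, an inactive rhomboid that carries Adam17 to the cell surface, differed by log2 0.96 (SE 0.237, edgeR adjusted p = 0.0169). Frmd8, which stabilises that complex, differed by 0.68 (SE 0.177, edgeR adjusted p = 0.0233). Mean Rhbdf1 was 5.81 CPM in 3xTg NAVI and 2.98 CPM in WT NAVI. With vehicle it was 4.22 CPM in VehN, 3.803 CPM in VehD and 4.203 CPM in WT Veh. Mean Frmd8 was 26.4 and 16.5 CPM with NAVI, and 19.3, 20.65 and 17.4 CPM in those vehicle groups. The part of the GC trends in these 2 calls was not tested. With DQ Gsap was higher (0.38, edgeR adjusted p = 0.0406) and no other of the 56 was called. In 3xTg none of the 56 was called with NAVI against VehN. The NAVI effect differed between genotypes in 7 of the 56, which were 6 higher (Gga1, Sez6, L1cam, Apbb1, Itm2c and Mmp24) and 1 lower (Ide), beside 8.13% of all genes. No gene of the whole table was called in this contrast with the GC trend removed, without the low count filter or with only its own libraries. Across all genes its differences had a Spearman rho of 0.687 with GC content. A difference of the vehicles VehN and Veh and one of genotype cannot be told apart in it.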

How the data were processed

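Per the labels' protocols, RNA of crushed frozen hippocampi was made into stranded mRNA libraries and read as pairs of 100 bases. Per the submitters' processing notes the tools were STAR, Subread and featureCounts on the mouse build mm10. The sources used here do not give versions, annotation or strand setting. The deposited table holds the authors' raw counts per gene symbol for 28 libraries, neither normalized nor pooled, and 0 columns were left unused. Libraries held 32080861 to 54019519 counts. No 2 libraries of a group agreed within sampling noise (lowest chi-square per degree of freedom 12.3). The labels do not say that each library is a separate animal, so the p-values cover only how these libraries vary, which may be technical.

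Differences were tested with edgeR 4.0.16 under R 4.3.3 (quasi-likelihood), with TMM scaling, filterByExpr by group (16369 genes kept), a coefficient for each group and 1 fit over all 28 libraries. It gave 10 contrasts with two-sided p-values, adjusted by Benjamini-Hochberg over all tested genes within each contrast, and calls at an adjusted p under 0.05. The SE is the absolute log2 difference over the square root of F. The 95% intervals are from t with the total degrees of freedom of the quasi-likelihood test (25.0). CPM use TMM library sizes, and log2 CPM a prior count of 2. NAVI was matched to VehN and DQ to VehD by the last letter of the label. Correlations have permutation p-values from 100000 draws, two-sided, adjusted over 70 or 45 relations. The draws mixed all 28 libraries without regard to genotype or group. Exon lengths, GC content (of the longest transcript, known for 95.2% of tested genes) and positions are from GENCODE M21, and upstream sequences from RefSeq.

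The 10 genes, the partner and marker lists and the rule for naming genes were chosen with earlier results of these data known. All 10 genes are given, with full statistics where called and for the 2 smallest p-values where none was. Of partner lists up to 4 called genes with the smallest p are named, with App, Aph1b and Aph1c as context (1 other gene of the rule is not reported here), and 2 genes most like each of 4. The neighbours of Adam17, and the partners called in contrasts other than the vehicle one, were named after their values were seen.

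Alternatives were RLE and upper-quartile scaling, DESeq2 1.42.0, limma-voom (limma 3.58.1) with quality weights, a fit without the low count filter, a mean count of at least 50, the replicate number as a block, a fit on only the compared libraries, choroid plexus and thalamic scores as covariates, removal of each library's GC trend, either vehicle alone or both, and leaving out each library. Added after seeing the data were a fit without the libraries with a thalamic score above 0.5 and the genotype difference averaged over treatments. The fit was tested on simulated counts: for the vehicle contrast of genotypes (16230 genes) the share recovered was 20.4% at a 1.25-fold change, 71.4% at 1.5-fold and 92% at 2-fold, and 2.8% of calls were false. For NAVI against VehN in 3xTg (16236 genes) it was 27.1% at 1.25-fold, 54% at 1.5-fold and 84% at 2-fold, and 5.1% of calls were false.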

Additional observations from a re-analysis of the deposited data

Results flagged for a closer look

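Of 70 sets of 4 libraries (10 genes in 7 groups), 3 held a library whose gap to the nearest of the other 3 took a larger share of the range than Dixon's 95% critical value. Chance gives about 1 in 20. Bace1 was low in 3xTg DQ replicate 4, at 143.5 CPM against 148.3 to 148.7 CPM. Aplp1 was high in 3xTg DQ replicate 1, at 1012 CPM against 867.2 to 882 CPM. Aplp2 was high in WT Veh replicate 2, at 716.3 CPM against 681.1 to 686.3 CPM; this library is among the 8 with a high thalamic score.

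The effect of NAVI on Aplp1 differed between 3xTg and WT by 0.67 on the log2 scale (edgeR adjusted p = 0.0427), by a test of the difference itself. After removal of the GC trends it was 0.16 (edgeR adjusted p = 0.169).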

How the results depend on the processing

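Of 2150 values of the 10 genes under an alternative, 2060 kept their direction and side of the threshold or had no call to lose, 26 lost a call, 64 gained one and 0 reversed a called direction; 206 that were called in neither fit changed sign. Adam17 with vehicle (26 of 26 alternatives) and Ncstn with NAVI (19 of 19) kept their calls. Causes were not tested.

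Genes called with vehicle between genotypes numbered 2142, and 3283 with the replicate block, 1118 with only the libraries of the comparison, 623 with VehD alone and 5033 without the libraries with a high thalamic score. Of the 10 genes, 2 were called, but 1 without the low count filter, with the GC trend removed, with either vehicle alone or with only the libraries of the comparison, and 6 without the thalamic libraries. The GC trends of the vehicle libraries kept in the last of these fits are given with Adam10. For NAVI against VehN in 3xTg 0 genes were called, and 2317 with the replicate block, 1521 with the choroid plexus and thalamic scores, 1541 against both vehicles, 826 with limma-voom, 2000 with DESeq2 and 2514 without the thalamic libraries. Of the 10 these called 2, 3, 1, 1, 1 and 3. Between genotypes with NAVI, where 979 genes were called, the replicate block gave 1884, only the libraries of the comparison 535, limma-voom 1603 and DESeq2 1644. Of the 10 genes 1 was called, and 3 with the block, 4 with the GC trend removed, 4 with limma-voom, 3 with DESeq2 and 3 without the thalamic libraries.

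The NAVI effect by genotype had 1331 genes, and 0 without the low count filter, 0 with the GC trend removed, 0 with only the libraries of the comparison, 3315 with the replicate block, 3167 with the tissue scores, 2007 with limma-voom, 3006 with DESeq2 and 4925 without the thalamic libraries. Of the 10 genes it had 1, and 2 with RLE scaling, 2 with a mean count of at least 50, 2 with limma-voom, 4 with the block, 4 with the tissue scores, 3 with DESeq2, 5 without the thalamic libraries and 0 in the 3 settings with 0 genes. Between genotypes with DQ (500 genes, 0 of the 10) the tissue scores gave 315 genes, limma-voom 1545 and 2 of the 10, and the fit without the thalamic libraries 157. NAVI in WT (0) gave 3 with limma-voom and 2 with DESeq2. DQ in WT (1) gave 2 with the GC trend removed, 0 with limma-voom or only its own libraries and 3 with DESeq2. The vehicles (0) gave 2 with DESeq2, and the DQ effect by genotype (0) gave 1 with DESeq2 and 1 with the tissue scores.

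Leaving out 1 library gave 873 to 3482 genes between genotypes with vehicle (1 to 3 of the 10), 0 to 3578 for NAVI in 3xTg (0 to 4), 375 to 1920 between genotypes with NAVI (1 to 3), 263 to 632 with DQ, 0 to 4214 for the NAVI effect by genotype (0 to 4), 0 to 1 for NAVI in WT, 1 to 5 for DQ in WT and 0 to 1 between vehicles. The highest counts with vehicle, for NAVI in 3xTg and for the NAVI effect by genotype were those without VehN replicate 1.

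What libraries with the same replicate number share besides that number is not stated in the labels. Their deviations correlated with a median r of -0.01 to 0.05 by number, and 9 of 28 libraries were closest to their own number. Whether they share a batch or day cannot be told from these values. Under the block Aplp1 and Psen2 were also called for NAVI in 3xTg, Psen2 and Aplp1 between genotypes with NAVI, and Psen2, Ncstn and Psenen for the NAVI effect by genotype. Bace2 had the fewest counts of the 10 genes, and its 95% interval with vehicle spans -0.38 to 0.69 on the log2 scale.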
